A study of Arabidopsis thaliana with 2 samples.

Results

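The 10 genes described here are the floral organ identity genes of the MADS-box family in Arabidopsis thaliana, named by locus: AP1 (AT1G69120), AP3 (AT3G54340), PI (AT5G20240), AG (AT4G18960), SEP1 (AT5G15800), SEP2 (AT3G02310), SEP3 (AT1G24260), SEP4 (AT2G03710), SHP1 (AT3G58780) and SHP2 (AT2G42830). They are 10 of 27444 annotated protein-coding genes and overlap 14 of the 11916 nuclear bins of 10 kb in the deposited tables. They are grouped by known function, and no measured value enters the choice rule. All 14 bins passed the filter on low counts, and none lies within 2 Mb of a centromere. Nuclease-protected DNA was sequenced from leaves of 1 chr5 mutant and 1 wild-type sample, both grown on plates at 22 °C and untreated. CHR5 is a chromatin remodelling ATPase of the SNF2 superfamily, and the series sets the mutant against the wild type to compare where nucleosomes protect DNA from micrococcal nuclease. The labels do not say which chr5 allele was used. The files hold counts of genomic DNA and no RNA, so the leaf label could not be checked with marker genes.

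MADS-box proteins of this group work in combinations that set the identity of each whorl of the flower. Class A activity (AP1) marks sepals, and with class B activity (AP3 and PI) it marks petals. Classes B and C (AG) mark stamens and C alone marks carpels, while the SEPALLATA proteins (class E) are partners needed in every whorl. SHP1 and SHP2 are close relatives of AG that act in the ovules and at the valve margins where the fruit opens. In leaves most of these genes are normally silent, and Polycomb group proteins are known to keep AG and several others repressed there.

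The mutant library held 102412872 counts in the 5 nuclear chromosomes and the wild-type library 99392770, and every level below is given in counts per 1000000 nuclear counts (CPM). Every fold is mutant over wild type on that scale, and its 95% interval is an exact conditional binomial one that covers counting error only. Each genotype is represented by a single library, so no difference could be checked against replicates or tested. A bin spans several genes and many nucleosomes, so a value belongs to the bin and not to the MADS-box gene alone. Over all 11735 analysed bins the central 95% of folds ran from 0.907 to 1.08.

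The 10 genes together had slightly more protected DNA in the mutant. Their 14 bins held 102760 counts in the mutant and 96394 in the wild type, a fold of 1.035 (1.026 to 1.044). The median log2 ratio over the 10 genes, each taken over all bins it overlaps, was 0.057, against 0.020 over the 27253 protein-coding genes treated alike. Of the 10 genes, 8 lay above that median gene, against 50.0% of all genes by definition. No member reached a fold of 1.1 in either direction. Among all protein-coding genes 0.433% were at least 1.1-fold higher and 0.605% at least 1.1-fold lower, so counts of 0 among 10 are near that background.

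A smaller difference of 5% (mutant over wild type when higher, wild type over mutant when lower) was passed upwards by 4 members, SHP1, PI, AG and, at a fold of 1.0501, SHP2, and downwards by 0. The shares over all genes were 10.7% upwards and 2.9% downwards. This count depended on the processing. It was 1 of 10 when the median bin was set to a ratio of 1 (5.63% of all genes), and 0 of 10 when each bin was compared with bins of like count (3.79%) or when 1 bin was added on either side of each gene (2.98%).

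The levels themselves were on the low side of the nuclear genome in both genotypes. The median bin held 81.0 CPM in the mutant and 80.3 in the wild type. Of the 14 member bins, 10 were below the median bin in both libraries, against 48.5% of all analysed bins. The lowest was the first SEP4 bin, with 47.5 CPM in the mutant and 47.4 in the wild type. The highest was the first PI bin, with 91.5 in the mutant and 91.8 in the wild type. Against the 10 bins on either side of each gene, 9 of the 10 genes had a mean level per bin below the flank median in both libraries. The exception was SHP2, at 1.03 times its flank median in the mutant and 0.955 times in the wild type. The share of all protein-coding genes below their flanks in level was not computed, so 9 of 10 has no background beside it. AP1 and SEP3 were lowest by this measure, AP1 at 0.660 times in both libraries and SEP3 at 0.660 times in the mutant and 0.668 times in the wild type.

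**Figure D1:**
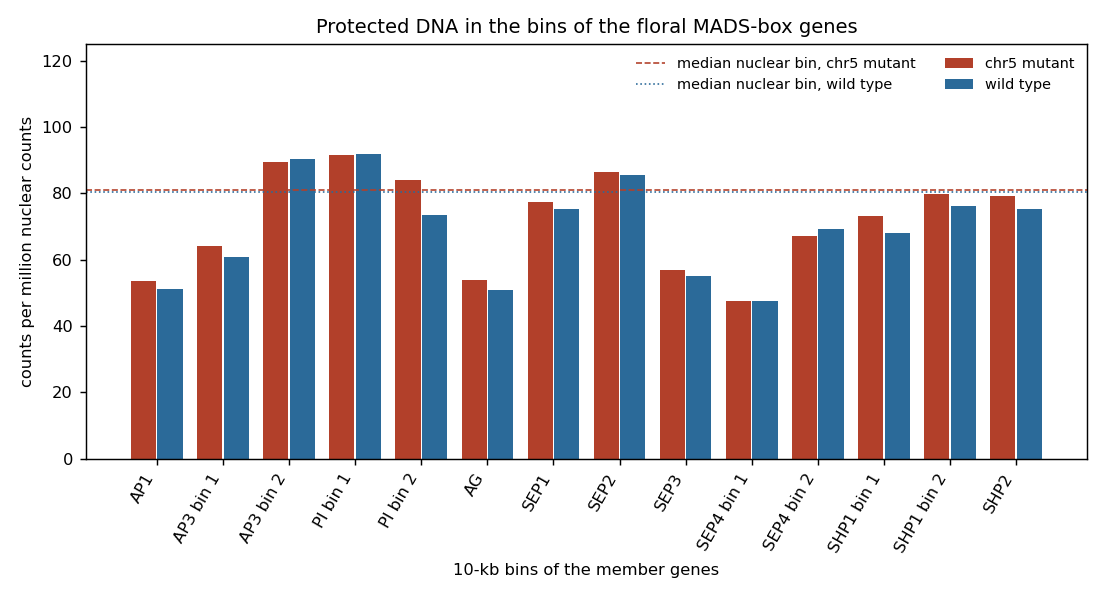
CPM (y axis) in each of the 14 bins of 10 kb that the member genes overlap (x axis), with a bar for the chr5 mutant and a bar for the wild type, and lines at the median nuclear bin of each library. The mutant bar is the higher one in 11 of 14 bins, and the largest gap is in the second bin of PI, at 83.8 in the mutant against 73.5 in the wild type.

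The scaled count was higher in the mutant in 11 of 14 member bins, as it was in 61.4% of all analysed bins. Above the median bin were 10 of 14 (50.0% of all bins). Bins with few counts tended to have a higher ratio across the genome (Spearman's rho of the log2 ratio with the mean count -0.43, a description across 11735 bins of the same 2 libraries). As given above, 10 of the 14 member bins held fewer counts than the median bin. After the median of the bin's class of mean count was subtracted, 10 of 14 member bins were still above 0, against 49.9% of all bins, but the median log2 ratio of the 10 genes was 0.024 in place of 0.057. The part of this count dependence in the members' values was not tested further.

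**Figure D2:**
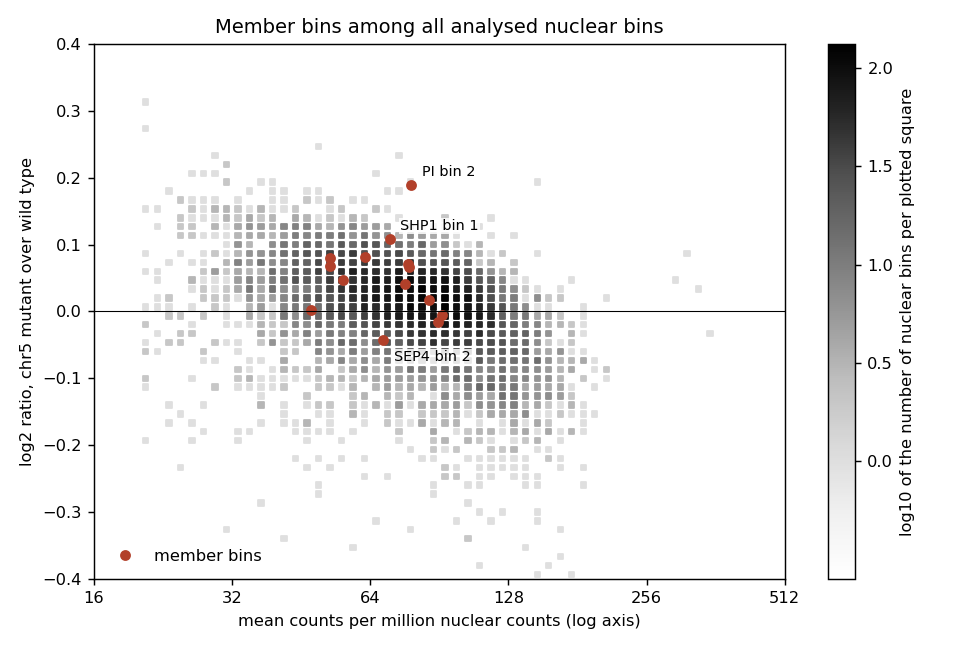
The log2 ratio, mutant over wild type (y axis), against the mean scaled count (x axis, log scale) for all analysed nuclear bins, shown as squares shaded by the number of bins, with the 14 member bins as red points; 22 bins lie outside the plotted range. The second PI bin, at 0.19, stands at the upper edge of bins of like count, and the other 13 member bins lie inside the cloud.

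AP1, the class A gene that also gives the floral meristem its identity, lies in 1 bin of chromosome 1 (25980001 to 25990000), of which it covers 40.6%. That bin had 5485 counts in the mutant and 5079 in the wild type, which is 53.6 CPM in the mutant and 51.1 in the wild type. The fold was 1.048 (1.009 to 1.089), and 88.2% of protein-coding genes had a lower ratio. Its log2 ratio of 0.068 lay between 3 higher bins before it (0.12, 0.10 and 0.096) and 2 lower ones after it (0.0098 and 0.017). The flank median was 0.031, and 4 of the 20 flank bins were above AP1. CRC, a YABBY gene of carpel and nectary development that lies 2 bins further on, was at a fold of 1.012 (0.977 to 1.048).

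The class B genes AP3 and PI, whose proteins act as a dimer in petals and stamens, each cross a bin border, and in each the pair of bins differed. The first AP3 bin (chromosome 3, 20110001 to 20120000) had 6569 counts in the mutant and 6027 in the wild type, a fold of 1.058 (1.021 to 1.096). AP3 covers only 8.61% of it, and WRI1, a regulator of seed oil synthesis, covers 42.6%. The second AP3 bin (20120001 to 20130000) had 9148 counts in the mutant and 8977 in the wild type, a fold of 0.989 (0.961 to 1.02). The intervals of the 2 bins do not overlap. The share of adjacent bins over the genome that do the same was not computed, so this does not set AP3 apart. Over both bins AP3 was at 1.02 (0.994 to 1.04).

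PI held the only member bin past 1.1-fold. Its second bin (chromosome 5, 6830001 to 6840000) had 8586 counts in the mutant and 7306 in the wild type, a fold of 1.14 (1.11 to 1.18). Of all analysed bins, 0.81% were at least 1.1-fold higher and 2.65% at least 1.1-fold lower, and 17 bins had a higher ratio than this one. Compared with bins of like count, 99.9% were lower. The first PI bin (6820001 to 6830000) had 9369 counts in the mutant and 9128 in the wild type, a fold of 0.996 (0.968 to 1.03). PI is split between them, with 1097 bp in the first and 1515 bp in the second, so the gene is 15.2% of the bin that was higher. The gene that covers most of that bin is DIN10, a dark-inducible raffinose synthase family gene, with 33.0%. The 10-kb counts cannot assign the difference to either gene. Over both bins PI was at 1.06 (1.04 to 1.08), and this value rests on the second bin.

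The difference at PI was confined to 1 bin of its surroundings. In the wild type the second bin was a local low, at 73.5 CPM between neighbours of 91.8 and 98.97, which is 77.0% of the neighbours' mean. In the mutant it was shallower, at 83.8 between 91.5 and 100.1, or 87.5% of their mean. The bins before and after it had log2 ratios of -0.0056 and 0.016, against 0.19 for the bin itself. None of the 20 bins around PI exceeded 0.079.

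AG, the class C gene of stamens and carpels, fills more of its bin than any other member, at 56.8% (chromosome 4, 10380001 to 10390000). It had 5510 counts in the mutant and 5060 in the wild type, which is 53.8 CPM in the mutant and 50.9 in the wild type. The fold was 1.057 (1.017 to 1.098), and 92.5% of protein-coding genes had a lower ratio. The flanks of AG had a median log2 ratio of 0.028 and reached 0.13, so 2 of the 20 neighbours were above its 0.080.

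The 4 SEPALLATA genes of class E were nearer to equal in the 2 libraries. Their 5 bins held 34345 counts in the mutant and 33027 in the wild type, a fold of 1.009 (0.994 to 1.025). The other 6 genes had 68415 counts in 9 bins in the mutant and 63367 in the wild type, a fold of 1.048 (1.037 to 1.059). These intervals do not overlap, but they cover counting error only, and the 2 sets were not tested against each other. How often other sets of genes differ this far was not computed, so the contrast does not set class E apart. The 9 bins include the second bin of PI, at 1.14 (1.11 to 1.18), and the contrast was not computed without it. Leaving that bin out lowered the fold of all member bins together from 1.035 to 1.026. Gene by gene the sets were not separate, as SEP3 (1.033) and SEP1 (1.029) were above AP3 (1.017).

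Within class E the highest was SEP3, which encodes the most widely interacting of these partners (chromosome 1, 8590001 to 8600000). It had 5819 counts in the mutant and 5466 in the wild type, a fold of 1.03 (0.996 to 1.07). The closely related SEP1 and SEP2 came next within the class. SEP1 (chromosome 5, 5150001 to 5160000) had 7919 counts in the mutant and 7469 in the wild type, a fold of 1.03 (0.997 to 1.06). SEP2 (chromosome 3, 460001 to 470000) had 8862 counts in the mutant and 8504 in the wild type, a fold of 1.01 (0.982 to 1.04). All 3 intervals include 1.

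SEP4, which overlaps in function with the other SEPALLATA genes, was the only member with a fold below 1. Its first bin (chromosome 2, 1120001 to 1130000) had 4863 counts in the mutant and 4711 in the wild type, a fold of 1.002 (0.962 to 1.043). The second (1130001 to 1140000), which holds 1838 bp of the gene, had 6882 counts in the mutant and 6877 in the wild type, a fold of 0.971 (0.939 to 1.004). Over both bins SEP4 was at 0.984 (0.959 to 1.009), an interval that includes 1, and 13.96% of protein-coding genes had a lower ratio.

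SHP1 and SHP2, which act redundantly in fruit opening, were both on the high side. SHP1 had the highest fold of the 10 genes and, unlike PI, was higher in both of its bins. The first (chromosome 3, 21730001 to 21740000) had 7490 counts in the mutant and 6745 in the wild type, a fold of 1.08 (1.04 to 1.11). SHP1 covers 18.4% of this first bin, and AT3G58770 covers 32.1%. The second (21740001 to 21750000), which GAUT15, a galacturonosyltransferase gene of pectin synthesis, covers for 42.5%, had 8155 counts in the mutant and 7556 in the wild type, a fold of 1.047 (1.015 to 1.081). Over both bins SHP1 was at 1.06 (1.04 to 1.09), above all 20 bins around it.

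SHP2 covers 39.0% of its bin on chromosome 2 (17820001 to 17830000), which also holds PDF1, a gene of the epidermal layer. The bin had 8103 counts in the mutant and 7489 in the wild type, a fold of 1.0501 (1.017 to 1.084). The next 2 bins after it were higher still, at log2 ratios of 0.13 and 0.099 against 0.070, so SHP2 lies at the edge of a stretch of raised ratios. Near-identical stretches shared by SHP1 and SHP2, or by SEP1 and SEP2, could exchange or lose reads in the counting, and the handling of such reads is not given in the sources used here.

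**Figure D3:**
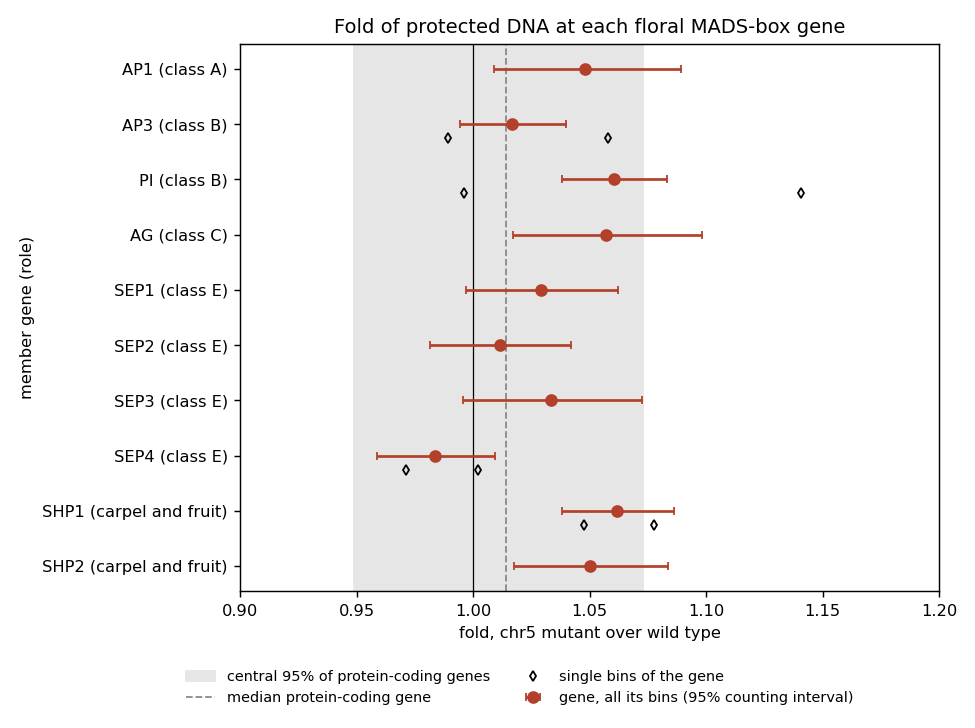
Fold of mutant over wild type (x axis) for each member gene by role (y axis), as red points with 95% counting intervals, with the single bins of genes that cross a bin border as open diamonds; the grey band holds the central 95% of protein-coding genes (0.949 to 1.07) and the dashed line marks their median. All 10 genes lie inside the band; of the single bins, whose own central 95% is wider (0.907 to 1.08), the second of PI at 1.14 is the one outside that range.

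In order of fold the genes ran SHP1, PI, AG, SHP2, AP1, SEP3, SEP1, AP3, SEP2 and SEP4. None of the 9 neighbouring pairs in this order had separate intervals. Of all 45 pairs, 4 did, and each set SEP4 below one of SHP1, PI, AG and SHP2. The share of such pairs among all protein-coding genes was not computed, so this count does not set SEP4 apart. The interval lay above 1 for 5 genes, SHP1, PI, AG, SHP2 and AP1, and below 1 for 0. Of all protein-coding genes, 28.4% had an interval above 1 and 8.22% one below 1. Over the 14 bins the log2 ratio had an SD of 0.059, against 0.064 over all analysed bins and 0.025 from Poisson counting at the members' depth.

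Most members also lay above their own surroundings. The ratio of 9 of the 10 genes exceeded the median of the 20 flank bins, against 50.3% of all protein-coding genes, and SEP4 was the exception. The median difference in log2 ratio was 0.032, against 0.00044 over all genes. With each bin taken less the median of its count class, 7 of 10 were above their flanks and the median difference was 0.013. The share and the median over all genes after this subtraction were not computed, so these values have no background beside them. Without that subtraction the difference was largest for SHP2 (0.071), PI (0.068), SHP1 (0.059) and AG (0.052). Of all genes, 95.2%, 94.6%, 92.1% and 89.6% had a lower one. The lowest was that of SEP4, at -0.027. With the subtraction SHP2 was at 0.067, PI at 0.062, SHP1 at 0.044 and AG at 0.022. Of the 14 member bins, 2 were the highest of their window of 21 bins, the second of PI and the first of SHP1, against 4.83% of all bins. Among the 200 flank bins, 0 passed 1.1-fold in either direction, and their log2 ratios reached from -0.13 to 0.13.

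**Figure D4:**
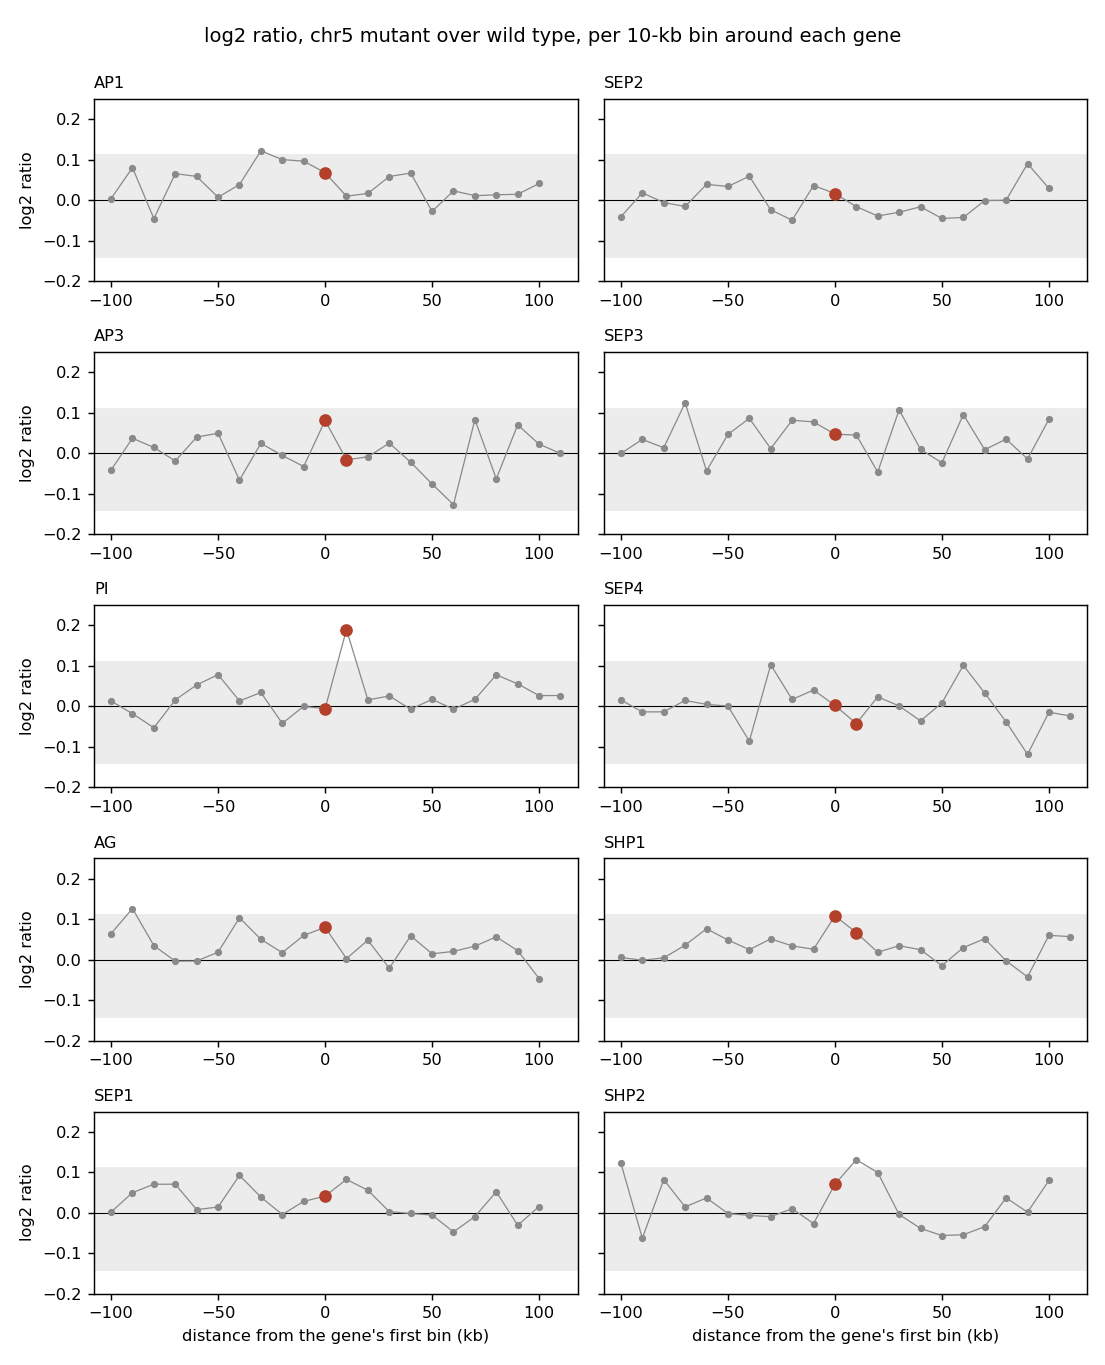
The log2 ratio, mutant over wild type, per 10-kb bin (y axis) against the distance from the first bin of each gene in kb (x axis), 1 panel per gene, with member bins in red, the 10 bins on either side in grey, and a grey band for the central 95% of all analysed bins. The second PI bin rises to 0.19 out of flanks that stay under 0.079. AP1 has higher bins only before it, and SHP2 has higher bins on both sides.

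Related genes of flower development were set beside the members, in 4 lists chosen for function. Of 21 other MADS-box genes of the same structural type (MIKC), 12 were above the median gene and the median log2 ratio was 0.025. Highest were AGL12, a gene of root development, at 1.08 (1.04 to 1.13) and the flowering-time activator AGL24 at 1.07 (1.04 to 1.11). Lowest were the root nitrate-response gene ANR1 at 0.986 (0.965 to 1.01) and the embryo gene AGL15 at 0.991 (0.971 to 1.01). None of the 21 passed 1.1-fold, which 0.433% of all protein-coding genes did upwards and 0.605% downwards. Over 5% higher were 4 of the 21, against 10.7% of all genes. AGL71 and AGL72 lie in the same bin, so they are not separate measurements.

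Of 7 activators of the organ identity genes, 2 were above the median gene, and their median log2 ratio was -0.00020. UFO, an F-box cofactor in the activation of AP3, was highest at 1.049 (1.015 to 1.084), followed by the AG activator PAN at 1.02 (0.994 to 1.04). The SWI/SNF ATPase gene BRM was lowest at 0.979 (0.962 to 0.997), followed by the stem cell regulator WUS at 0.991 (0.965 to 1.02).

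Among 11 repressors, 5 were above the median gene and the median was 0.016. AP2, which keeps AG out of the outer whorls, had the highest fold of all 56 listed genes, at 1.09 (1.04 to 1.15), with 3897 counts in the mutant and 3458 in the wild type. Its bin was also a sparse one, at 38.1 CPM in the mutant and 34.8 in the wild type. TFL1, which keeps the shoot tip from turning into a flower, was at 1.04 (1.002 to 1.08). SEU, a co-repressor of AG, was lowest of all, at 0.944 (0.925 to 0.963), and is the 1 listed gene within 2 Mb of a centromere. EMF1, a Polycomb-associated repressor of flowering, was at 0.971 (0.9505 to 0.993).

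The 7 downstream genes of floral organs and fruit were close together, with 2 above the median gene and a median of 0.017. KNU, a repressor of WUS, was highest at 1.022 (0.991 to 1.055) and SPL, a gene of spore formation, was close to it at 1.021 (0.988 to 1.054). IND and ALC, which act with the SHP genes at the valve margin, were lowest at 1.001 (0.969 to 1.033) and 1.007 (0.978 to 1.037). The members' median of 0.057 was the highest of the 5 lists, but the lists were not tested against each other. The other 4 lists were not compared within count classes, where the members' own median was 0.024, so the order is for unadjusted ratios only.

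**Figure D5:**
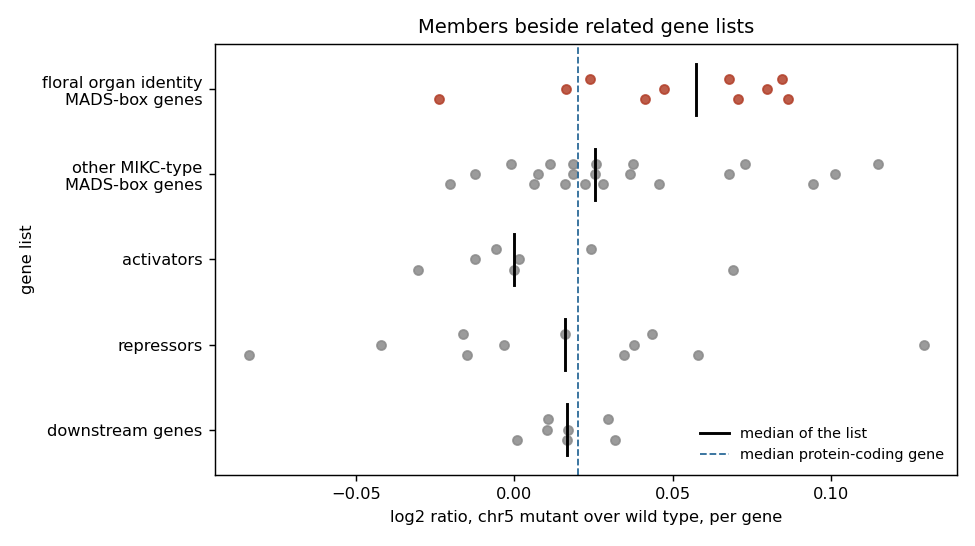
The log2 ratio, mutant over wild type, per gene (x axis) for the members (red) and the 4 related lists (grey), with a black bar at each list's median and a dashed line at the median protein-coding gene; vertical offsets within a list carry no meaning. The members' median is 0.057, and those of the other lists lie between -0.00020 and 0.025.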

How the data were processed

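The authors deposited whole-number counts per 10-kb bin, 1 table per library, not normalized. BWA 0.7.5a and bedtools are named in the submitters' processing notes, without roles. The genome build, the treatment of duplicates and of reads with more than 1 match, and the counting of reads or fragments are not given in the sources used. Gene positions came from RefSeq's TAIR10.1 table, and only bin coordinates are printed. As a check of the positions, protein-coding coverage and wild-type log2 counts per bin, each less its running median of 21 bins, correlated at 0.39 to 0.46 within each chromosome, and at 0.10 at most when shifted by 1 to 4 bins. All 56 listed genes matched by locus.

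Counts were scaled to each library's nuclear total, and log2 ratios used a pseudocount of 1. Bins under 0.25 times the median mean scaled count were left out (181 of 11916). Median counts per analysed bin were 8296 (mutant) and 7978 (wild type). A gene's value sums all bins it overlaps, flanks are 10 bins on either side, and centromere positions are approximate. Count classes are 20 classes of bins of equal size by mean count. Intervals are exact (Clopper-Pearson), and reads are not independent molecules where PCR copies are kept. With 1 library per genotype no test was run.

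The text names all members, the 2 highest and 2 lowest genes of each list, and the gene covering most of a bin where it bears on the result. CRC is named for its place beside AP1, and AGL71 and AGL72 for their shared bin. The members and lists were chosen with earlier results of these data known. The count at 5% as a result of its own, its alternatives and the removal of the second PI bin were chosen after seeing the data. The calculations were tested on simulated counts with Poisson error only and with larger changes than those of the members. That checks the code, and not whether differences of the size seen here exceed variation between samples. The software was Python 3.11.15, scipy 1.17.1, numpy 2.4.6, matplotlib 3.10.9 and pandas 2.3.3.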

Additional observations from a re-analysis of the deposited data

How the results depend on the processing

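The count of members above the median gene was 7 or 8 of 10 under all 11 alternatives, and the median log2 ratio of the members stayed positive, from 0.024 to 0.068 over 20 alternatives that include leaving out each member. The median difference from the flanks ranged from 0.013 to 0.038 over 12, with 7 to 10 members above their flanks. The lowest values of both medians came from comparing bins of like count. The summed fold of the member bins, 1.035 as reported, was 1.024 with the median bin at a ratio of 1. It was 1.018 less the median of the count class and 1.025 with 1 bin added on either side. Without the second bin of PI it was 1.026, and the median log2 ratio of the members was 0.044. Members at least 1.1-fold higher numbered 1 (PI) by the bin of the midpoint, 4 at a threshold of 5% and 0 otherwise. The count of 4 over 5% higher was 1 with the median bin at a ratio of 1, and 0 within count classes and with 1 bin added. The cause was not tested.

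For single genes, 10 of 202 values moved beyond their counting interval, all of them for PI, AP3 or SHP1. Many of the 202 could not move. The filter settings left every member's value as it was, and for genes in 1 bin the midpoint gives the same bin. By midpoint the log2 ratio was 0.19 for PI and -0.016 for AP3, and without the second bin PI was at -0.0056. No paired analysis was possible because each genotype has 1 library. A library could not be left out for the same reason. Depth gives each gene an interval of a few percent, so smaller differences lay within counting error. Larger ones could not be told from variation between samples, with 1 library per genotype.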
